A study of Mus musculus with 6 samples.

Results

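The liver activates and clears steroid and thyroid hormones through a set of dedicated enzymes, and 7 of their genes were examined in mouse livers in which the transcription factor SRF was targeted. They are Dio1, Hsd11b1, Hsd17b2, Akr1c6, Hsd3b2, Hsd3b5 and Srd5a1, and were taken by name as every probe set of the array annotated with exactly 1 gene symbol, that of a member. This rule found 6 probe sets, 1 for each of 6 genes, among 45101 probe sets on the array; no probe set is listed for Srd5a1 in the annotation used, so it has no value here. The 6 measured genes stand among 18193 genes with a probe set of their own, and all 6 were bright enough to be tested, among 13144 genes.

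Livers of male mice aged 3 weeks were compared, 3 mutants against 3 controls, each on 1 Affymetrix array. The mutant genotype is Srf loxP/loxP AlfpCre, with both copies of Srf flanked by loxP sites. The control genotype is Srf loxP/+ AlfpCre, so the controls carried the same Cre transgene and 1 flanked copy of Srf and were not wild type. The AlfpCre transgene is known to drive Cre recombinase from albumin and alpha-fetoprotein regulatory elements, so cells of the liver outside the hepatoblast lineage keep Srf. Each group is described as 3 male mice, and no batch is named in the labels.

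As background, steroid hormones are controlled after secretion by reductases and dehydrogenases that switch single hydroxyl and keto groups, and so turn potent hormones into weak ones or the reverse. Thyroxine, the main product of the thyroid, gains activity when an outer-ring iodine is removed and loses it when an inner-ring iodine is removed. Liver is a main site of both kinds of reaction, and in mice several of these genes differ between the sexes under the control of growth hormone.

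The sequences just upstream of the start sites are shown for the members whose windows held the forkhead motif described with them, Hsd3b5, Dio1 and Hsd11b1. Each run holds the 250 bases before the gene's annotated start, 5′ to 3′ on the gene's strand, from RefSeq on build GRCm38.p6, with the letters that match TGTTTNC on either strand in capitals.
Hsd3b5, chr3:98645535-98645784, minus strand: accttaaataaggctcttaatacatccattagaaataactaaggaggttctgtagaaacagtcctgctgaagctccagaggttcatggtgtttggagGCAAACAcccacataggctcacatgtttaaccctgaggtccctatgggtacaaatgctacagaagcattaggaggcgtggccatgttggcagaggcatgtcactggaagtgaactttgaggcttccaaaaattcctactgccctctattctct
Dio1, chr4:107307169-107307418, minus strand: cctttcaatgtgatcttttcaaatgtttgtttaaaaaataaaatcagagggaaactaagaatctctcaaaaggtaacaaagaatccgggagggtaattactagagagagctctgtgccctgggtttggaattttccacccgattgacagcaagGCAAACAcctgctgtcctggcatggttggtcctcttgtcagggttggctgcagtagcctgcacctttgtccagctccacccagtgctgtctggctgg
Hsd11b1, chr1:193242361-193242610, minus strand: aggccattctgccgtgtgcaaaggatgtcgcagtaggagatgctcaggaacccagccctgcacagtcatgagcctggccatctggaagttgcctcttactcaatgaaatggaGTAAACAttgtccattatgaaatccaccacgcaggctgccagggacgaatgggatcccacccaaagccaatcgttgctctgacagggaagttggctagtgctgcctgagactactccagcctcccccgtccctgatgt
TGTTTNC is the core of sites for forkhead factors such as FOXA, which maintain liver gene expression. Promoters of 6 members were read, Srd5a1 among them, while Hsd17b2 had no promoter entry and was not scanned. The forkhead motif occurred in 3 of these 6 promoters and in 17.8% of 32851 promoter windows of this length. The glucocorticoid receptor half-site AGAACA occurred in 1 of the 6, Hsd3b2 (16.1% of all windows). The nuclear receptor half-site AGGTCA (14.0% of all windows), the STAT site TTCNNNGAA (7.02%), a full HNF1 site (0.00913%) and the CArG box bound by SRF (1.47%) were found in 0 of the 6. Both strands were read and no match overlapped another; a match is a run of letters and not a bound site. Hsd17b2 is named only.

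All values below are log2 signals, after scaling the arrays to a common trimmed mean and setting signals under 1 to 1, so a value of 0 is a signal at that floor. A log2 signal at or below 3.07 in mutants or 2.88 in controls is treated as background, the 95th percentile of receptor genes of smell and taste that liver is assumed not to express. Signals of different probe sets are not on 1 scale, so genes are compared only by their differences. In whole tissue, fewer cells of a type and less RNA per cell cannot be told apart.

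Srf, the targeted gene, gave no clear check of the labels. Its brighter probe set (1418256_at) gave 4.17, 5.24 and 2.54 on mutant arrays 1 to 3, against 5.31, 5.14 and 5.11 on control arrays 1 to 3 (log2 fold change -1.20, SE 0.62, limma adjusted p = 0.398). Mutant 2 lay among the controls, and mutants 1 and 3 below them, while the series' own design text describes the mutant tissue as lacking Srf. The value rested on single arrays: it was -0.48 without mutant 3 and -1.83 without mutant 2 (limma adjusted p = 0.575 and 0.101). It was -0.76 with the 3′/5′ index described below as a covariate (limma adjusted p = 0.936), and it was called with array weights, at -2.21 (limma adjusted p = 0.0214). A second probe set (1418255_s_at) gave 3.29, 0 and 1.99 on mutant arrays 1 to 3, against 3.00, 3.69 and 3.37 on control arrays 1 to 3 (limma adjusted p = 0.411), close to background. A probe set outside the deleted stretch checks nothing, and where these lie relative to it is not known here, so the groups are taken as labelled.

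Mutant 1 stood apart from the other arrays. Correlations over all tested probe sets were 0.827 to 0.907 between mutants and 0.937 to 0.941 between controls, and between 0.781 and 0.862 for mutant 1 with any other array. Mutant 2 correlated more with each control, at 0.919 to 0.931, than with mutant 1 or mutant 3, at 0.827 and 0.907. Results for the members are given with and without mutant 1.

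Hepatocyte markers were present in both groups: the summed signal of 8 measured markers was 54101 to 66223 in mutants and 43859 to 51067 in controls, and 7 of the 8 had a positive log2 fold change. Of 7 adrenal cortex markers, from a steroid-making tissue next to the kidney, all were at or below background in both groups, as were 3 of 6 kidney tubule markers. The summed signal of 8 Kupffer cell markers was 818 to 1481 in mutants and 1324 to 1907 in controls. For 8 endothelial markers the sums were 441 to 1686 in mutants and 831 to 1293 in controls, and for 8 stellate markers 1009 to 3134 in mutants and 2863 to 3357 in controls. Sums of 7 lymphocyte and leukocyte markers were 41.6 to 124 in mutants and 92.3 to 120.4 in controls, and of 4 erythroid markers 18.3 to 366 in mutants and 254 to 491 in controls. Sums of 5 cholangiocyte markers were 42.8 to 65.3 in mutants and 36.3 to 40.2 in controls. Cftr, Hba-a1, Epb42, Cd3e and Nkg7 were at or below background in both groups.

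In mutant livers 5 of the 6 measured genes had a lower mean signal and Hsd11b1 did not, but no member passed the test (limma, Benjamini-Hochberg adjustment over all 27022 probe sets tested, threshold 0.05). Of all genes tested, 0.0837% were called lower and 0.0304% higher. The adjusted p of the members ran between 0.221 and 0.622. At an unadjusted p under 0.05, 3 members were lower, Hsd3b5, Hsd17b2 and Hsd3b2, and none higher, beside 7.01% of all genes lower and 7.36% higher. A negative log2 fold change, found for 5 of 6 members, was found for 45.9% of all genes. The mutant arrays all lay below the control arrays for those 3 and for Akr1c6, 4 of 6 members, where 10.8% of all genes did so and 24.9% were apart in either direction. For Hsd3b5 the lowest control was itself below background, at 2.85 on control 3 against mutants at the floor. Hsd3b5 passed the filter, set on the mean of all arrays, only through controls 1 and 2, at 10.38 and 7.23. Its place in these counts is therefore a description. For Akr1c6 the highest mutant was at 11.93 and the lowest control at 12.08. The median log2 fold change was -3.35 over the 6 members and 0.06 over all genes tested, and -1.66 over the members without mutant 1. On the scaling as deposited the median over all genes was -0.39, and the calls over all genes were 3 higher and 18 lower in place of 4 and 11. On that scaling 1818 genes were lower and 192 higher with an unadjusted p below 0.05, in place of 922 and 967, and 2684 genes in place of 1423 had all mutant arrays below all control arrays. The shares of all genes given here therefore hold for the scaling to a common trimmed mean.

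**Figure D1:**
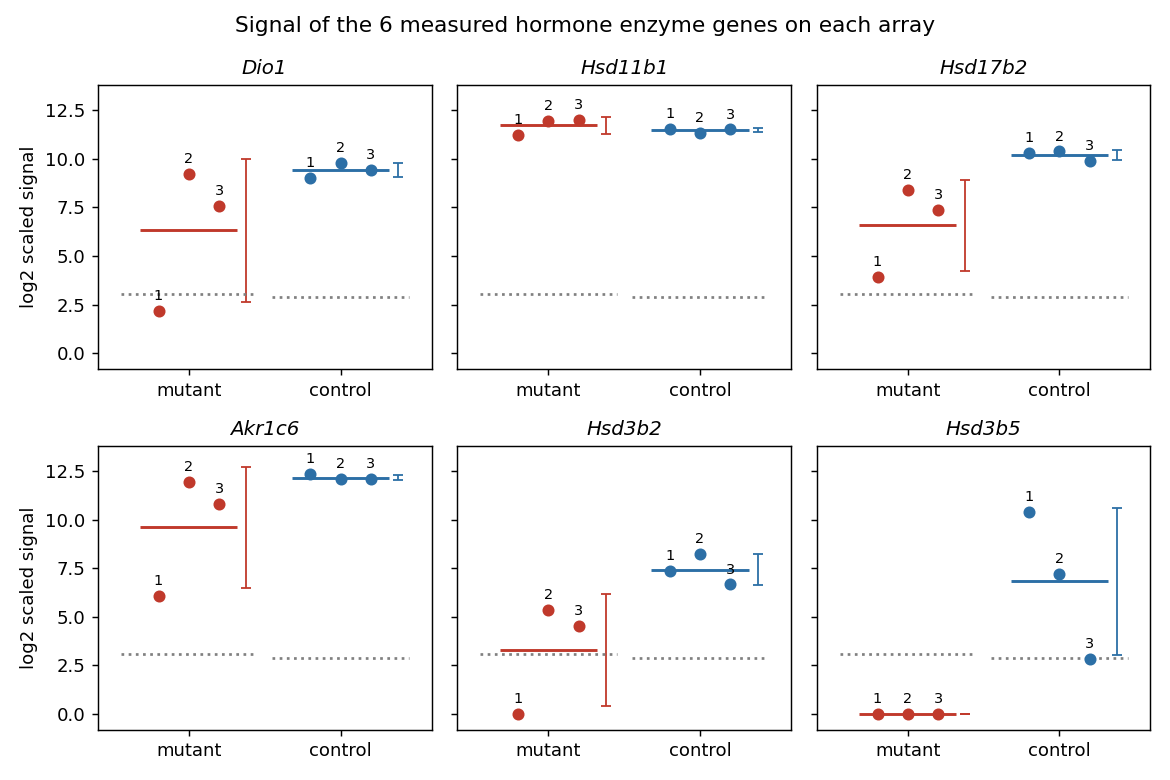
Each panel plots the log2 scaled signal of 1 gene on the 3 mutant arrays (red, left) and the 3 control arrays (blue, right), numbered by replicate, with horizontal bars at the group mean, error bars of 1 SD and dotted lines at the background estimate of each group. Mutant 1 is the lowest array for 5 of the 6 genes, and all 3 mutants lie at the floor for Hsd3b5.

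Dio1 encodes the type 1 deiodinase, the selenoenzyme by which liver converts thyroxine to active triiodothyronine and clears inactive iodothyronines. Its probe set (1417991_at) gave 2.20, 9.21 and 7.59 on mutant arrays 1, 2 and 3, against 9.04, 9.81 and 9.44 on control arrays 1, 2 and 3. Mutant 1 lay below background, mutant 3 below all controls, and mutant 2 within the control range. The means were 6.33 ± 3.67 in mutants and 9.43 ± 0.38 in controls (SD, n = 3 each), a log2 fold change of -3.09 (SE 1.52, 95% interval -6.60 to 0.41, limma adjusted p = 0.387). Among mutants the signal spanned 129-fold, and among controls 1.70-fold. Without mutant 1 the log2 fold change was -1.03 (limma adjusted p = 0.365).

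Hsd11b1 encodes the reductase that regenerates active glucocorticoid from its inactive keto form inside the hepatocyte. Its probe set (1449038_at) gave 11.23, 11.96 and 12.01 on mutant arrays 1 to 3, against 11.55, 11.35 and 11.51 on control arrays 1 to 3. Mutants 2 and 3 lay above all controls and mutant 1 below them. The log2 fold change was 0.26 (SE 0.26, limma adjusted p = 0.622), and its 95% interval of -0.33 to 0.86 spans 0.795-fold to 1.81-fold. The sign turned on the scaling as deposited, at -0.19 (limma adjusted p = 0.798), where the median of all genes was -0.39. Without mutant 1 it was 0.51 (limma adjusted p = 0.193). H6pd, the enzyme that supplies HSD11B1 with its cofactor NADPH, had 9.92 ± 0.78 in mutants and 9.37 ± 0.11 in controls (SD, n = 3 each; limma adjusted p = 0.483); it was named after its values were seen.

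Hsd17b2 encodes the dehydrogenase that oxidises estradiol and testosterone to weaker keto steroids. Its probe set (1418352_at) gave 3.94, 8.42 and 7.39 on mutant arrays 1 to 3, against 10.30, 10.38 and 9.88 on control arrays 1 to 3. Every mutant array was below every control array, and the gap was widest for mutant 1. The means were 6.58 ± 2.35 in mutants and 10.19 ± 0.27 in controls (SD, n = 3 each). The log2 fold change of -3.60 (SE 0.98, 95% interval -5.87 to -1.33) corresponded to a mutant signal at 8.22% of control (limma adjusted p = 0.284). Hsd17b2 was the member called when mutant 1 was left out, at -2.28 (limma adjusted p = 0.0276), and without mutant 2 it had -4.52 (limma adjusted p = 0.0529). Over all 13144 genes, 70 were called lower and 11 higher without mutant 1.

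Akr1c6 encodes an aldo-keto reductase, the mouse type 5 member of the 17β-hydroxysteroid dehydrogenases, which interconverts keto and hydroxyl forms of androgens and estrogens. Its probe set (1417085_at) gave 6.06, 11.93 and 10.82 on mutant arrays 1 to 3, against 12.33, 12.08 and 12.08 on control arrays 1 to 3. The groups did not overlap, yet the difference from the control mean was -0.23 for mutant 2 and -6.10 for mutant 1, on the log2 scale. The log2 fold change was -2.56 (SE 1.29, 95% interval -5.53 to 0.41, limma adjusted p = 0.392), and -0.79 without mutant 1 (limma adjusted p = 0.316).

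Hsd3b2 and Hsd3b5 belong to the 3β-hydroxysteroid dehydrogenase family and are neighbours on chromosome 3 in RefSeq. The Hsd3b2 enzyme is a dehydrogenase and isomerase of the kind that forms active steroids from their precursors. Its own probe set (1425127_at) gave 0, 5.38 and 4.52 on mutant arrays 1 to 3, against 7.37, 8.24 and 6.67 on control arrays 1 to 3. Mutant 1 was at the floor, and mutants 2 and 3 lay between background and the lowest control. The means were 3.30 ± 2.89 in mutants and 7.43 ± 0.79 in controls (SD, n = 3 each), with a log2 fold change of -4.13 (SE 1.25, 95% interval -7.00 to -1.25, limma adjusted p = 0.299). Since mutant 1 was at the floor this fitted value is no exact size, and without that array it was -2.48 (limma adjusted p = 0.0674).

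Hsd3b5 encodes a family member that acts in mice as a reductase of keto steroids and is known as a male-specific liver gene that depends on growth hormone. Its probe set (1420531_at) was at the floor of 0 on each of the 3 mutant arrays, against 10.38, 7.23 and 2.85 on control arrays 1, 2 and 3. The controls thus spanned 185-fold, and control 3 lay below the control background of 2.88. Mutants were on average at least 13.4-fold lower than controls, a bound against the background estimate that rests on a control mean of 6.82 ± 3.78 (SD, n = 3). The fitted log2 fold change was -6.82 (SE 1.59, limma adjusted p = 0.221), and it depends on the floor: it was -2.71 after log2(signal + 32) and -3.20 with a floor at 16. Leaving out mutant 1 could not move this value, since every mutant array was at the floor (-6.82, limma adjusted p = 0.167). Without control 1 it was -5.04 and without control 3 -8.80 (limma adjusted p = 0.667 and 0.0863).

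**Figure D2:**
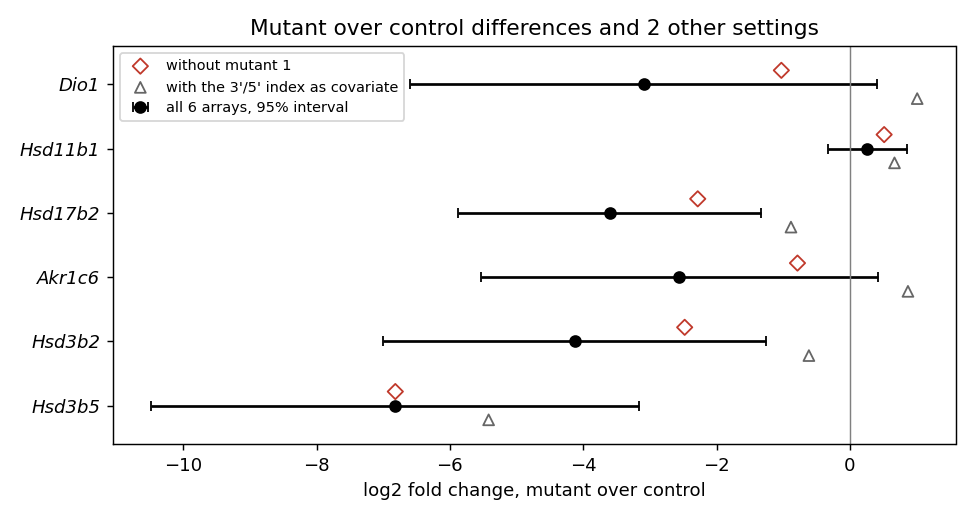
Black points give the log2 fold change of each measured gene, mutant over control, with its 95% limma interval; red diamonds give the value without mutant 1 and grey triangles the value with the 3′/5′ index of the arrays as a covariate. The intervals of Dio1, Hsd11b1 and Akr1c6 include 0, and the grey triangles of Dio1 and Akr1c6 lie on the other side of 0.

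The 3 mutant livers differed among themselves more than the controls did for 5 of the genes. Mutant 1 lay below all controls for 6 of 6 members, mutant 2 for 4 and mutant 3 for 5, against 38.4%, 26.9% and 29.0% of all genes. The median difference from the control mean over the members was -6.53 on mutant 1, -0.999 on mutant 2 and -2.32 on mutant 3, on the log2 scale. The same median over all genes was 0.07, 0.07 and 0.14. The mutant arrays thus stood in the same order for Dio1, Hsd17b2, Akr1c6 and Hsd3b2, with mutant 2 highest and mutant 1 lowest.

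RNA quality moved with this order. The mean log2 ratio of 3′ to 5′ control probe sets for Actb, Gapdh and Pcx was 2.18, 1.18 and 1.57 on mutant arrays 1 to 3, against 0.91, 0.78 and 1.22 on control arrays 1 to 3 (two-sided exact permutation p = 0.2, where 0.1 is the smallest that 3 against 3 arrays allow). Mutant 1 had the highest mean ratio of the 6 arrays, and mutant 2 lay within the control range. It did so on the Actb and Pcx ratios too, but not on that of Gapdh. The Gapdh ratio was 1.01, 0.77 and 0.87 on mutant arrays 1 to 3, against 0.71, 0.68 and 0.76 on control arrays 1 to 3. Every mutant was thus above every control on it (two-sided exact permutation p = 0.1). With the mean index as a covariate the log2 fold change was 1.01 for Dio1, 0.87 for Akr1c6, -0.88 for Hsd17b2, -0.62 for Hsd3b2, -5.42 for Hsd3b5 and 0.67 for Hsd11b1 (limma adjusted p = 0.929 for each). The part of RNA quality in the members' differences was not tested beyond that fit. On mutant 2, with its index in the control range, the difference from the control mean was -0.22 for Dio1, 0.49 for Hsd11b1, -1.77 for Hsd17b2, -0.23 for Akr1c6 and -2.05 for Hsd3b2 on the log2 scale, and Hsd3b5 was at the floor.

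Kupffer, endothelial, stellate and erythroid cell markers stood in the same order on the mutant arrays, with mutant 2 highest and mutant 1 lowest. The summed signal on mutant arrays 1 to 3 was 818, 1481 and 948 for Kupffer cells, 441, 1686 and 784 for endothelial cells, 1009, 3134 and 1730 for stellate cells and 18.3, 366 and 46.6 for erythroid cells. Summed hepatocyte markers stood in the opposite order, at 66223, 54101 and 59375 on mutant arrays 1 to 3. Lymphocyte and leukocyte markers, at 80.2, 124 and 41.6, and cholangiocyte markers, at 42.8, 61.3 and 65.3, stood in neither order. Not every marker kept the order of its sum. Among hepatocyte markers Alb, Ttr, Apoa1, Apoa2 and Fgb kept it, while Apob and Cps1 were lowest on mutant 1 and Hnf4a highest on mutant 3. The Kupffer cell markers Marco and Cd68 were highest on mutant 1 among the mutants. Csf1r of Kupffer, Cdh5 of endothelial and Des of stellate cells were lowest on mutant 3. The part of the orders of these sums in the members' differences was not tested.

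**Figure D3:**
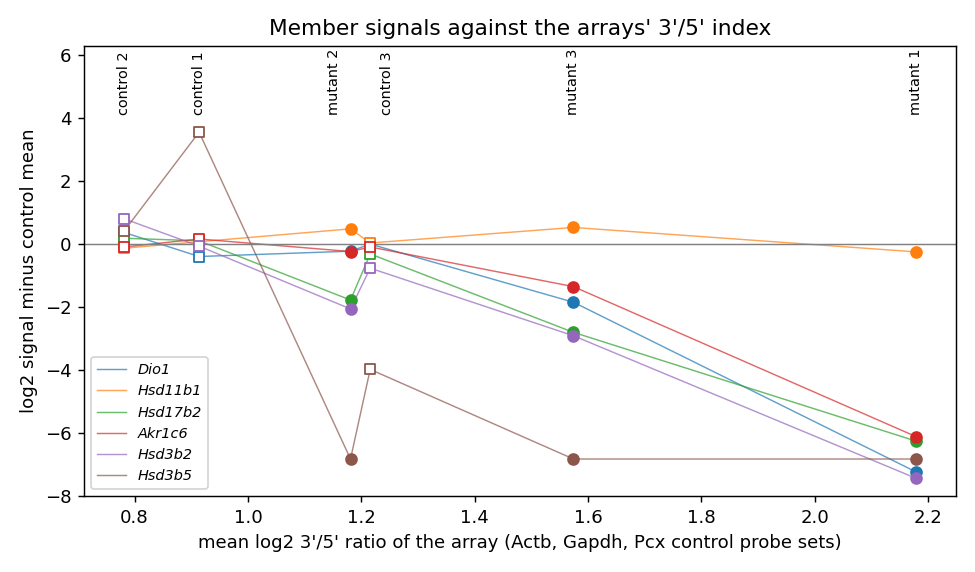
The log2 signal of each measured gene minus its control mean (vertical axis) is plotted against the mean log2 3′/5′ ratio of the array (horizontal axis), with filled circles for mutants and open squares for controls; lines join the arrays of 1 gene. Mutant 1, at 2.18, has the highest ratio and lies below -6 for every gene but Hsd11b1, while mutant 2 and control 3 have like ratios.

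The gene clusters around the members gave values that the rule did not use. Hsd3b5 and Hsd3b2 lie in a run of 6 Hsd3b genes on chromosome 3, in the order Hsd3b4, Hsd3b5, Hsd3b2, Hsd3b3, Hsd3b6 and Hsd3b1. These genes are alike in sequence, so a probe set of 1 can detect another. A probe set listed for Hsd3b6, Hsd3b3 and Hsd3b2 together (1460232_s_at) gave 3.84, 7.49 and 7.09 on mutant arrays 1 to 3, against 9.89, 9.38 and 9.24 on control arrays 1 to 3. Its groups did not overlap, and its log2 fold change was -3.36 (SE 0.85, limma adjusted p = 0.251). Hsd3b3 (1427377_x_at), whose suffix marks probes shared with related transcripts, had -3.46 (SE 0.87, limma adjusted p = 0.249), with 6.68 ± 2.01 in mutants and 10.14 ± 0.50 in controls (SD, n = 3 each). Its other probe set (1431916_at) had -1.44 with overlapping groups (limma adjusted p = 0.374). Hsd3b1 (1448453_at) gave 3.30, 0.29 and 1.98 on mutant arrays 1 to 3, against 3.63, 4.52 and 3.25 on control arrays 1 to 3. There mutant 2 was lowest and mutant 1 lay within the control range. The mutant mean of Hsd3b1 was below background (fitted log2 fold change -1.94, limma adjusted p = 0.357). The shared probe set and the brighter Hsd3b3 probe set were above background on all 3 mutant arrays, and Hsd3b5 on none.

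Akr1c6 lies in a run of 8 Akr1c genes on chromosome 13, between Akr1c12 and Akr1c20. Akr1c14, a reductase of 3-keto steroids, gave 5.10, 10.69 and 9.47 on mutant arrays 1 to 3, against 11.07, 11.13 and 10.61 on control arrays 1 to 3. As for Akr1c6, mutant 1 was far below the other arrays and mutant 2 close to the controls (log2 fold change -2.51, SE 1.22, limma adjusted p = 0.385). Akr1c20 had -2.35 on its brighter probe set (1425387_at, limma adjusted p = 0.361). Akr1c12, Akr1c13 and Akr1c19 had smaller fitted differences of -0.84, -0.61 and -0.70 (limma adjusted p = 0.381, 0.538 and 0.538). Akr1c21 had 0.27 (limma adjusted p = 0.765). These neighbours were chosen by position after values were seen.

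**Figure D4:**
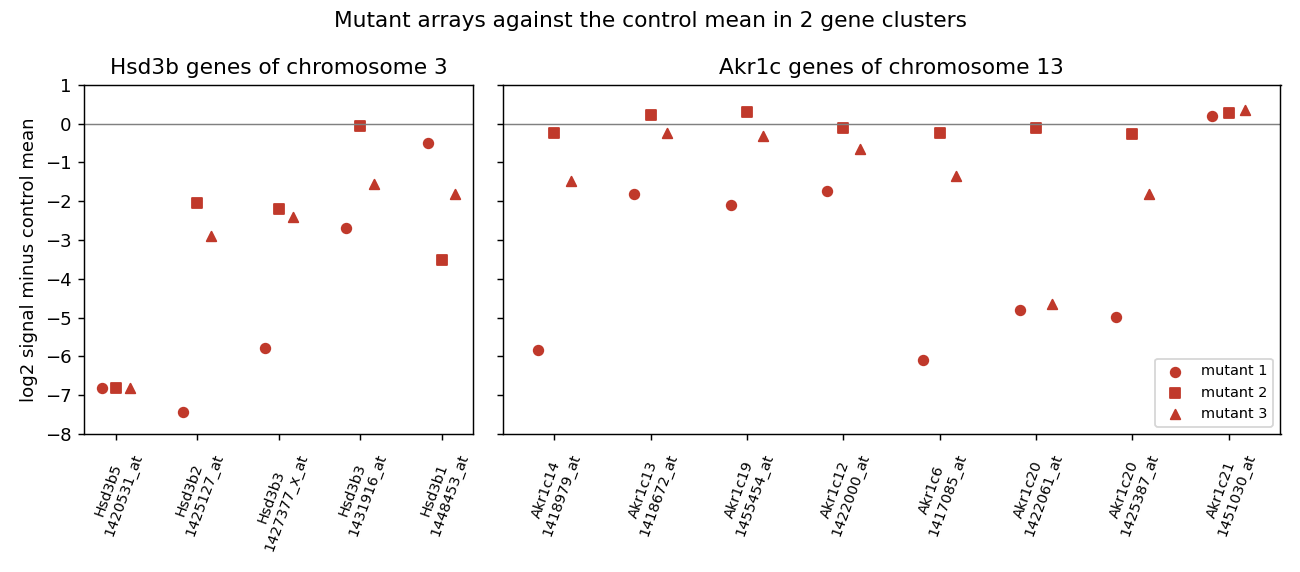
The log2 signal of each mutant array minus the control mean (vertical axis) is shown for every tested probe set with 1 gene symbol in the Hsd3b cluster of chromosome 3 (left) and the Akr1c cluster of chromosome 13 (right), in the order of the genes along the chromosome. Mutant 1 is lowest for Akr1c6, Akr1c14, Hsd3b2 and Hsd3b3, and all 3 mutants share the floor for Hsd3b5.

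Likeness to each member was measured as the mean absolute difference between mean-centred log2 profiles over the 6 arrays, among 13143 other genes. The profile nearest to Akr1c6 was that of Akr1c14, at 0.17, followed by Nxpe2, also at 0.17. For Dio1 the nearest were Ppp1r3c at 0.31 and Nxpe2 at 0.34, with Akr1c6 as the gene of rank 4 at 0.46. The nearest gene to Hsd3b2 was another member, Hsd17b2, at 0.38, and the next Fam47e, also at 0.38. For Hsd17b2 they were Elovl6 at 0.21 and Cyp2j5 at 0.28. Hsd3b5 was nearest to Cyp4a12a at 0.55 and Slco1a1 at 0.85, and Hsd11b1 to Taf4 and Fmc1 at 0.02 and 0.03. Slco1a1, an uptake transporter of organic anions, shared the wide spread of Hsd3b5 among controls: it gave 2.35, 0.62 and 2.50 on mutant arrays 1 to 3, against 10.11, 8.06 and 4.30 on control arrays 1 to 3.

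Other genes of the same pathways were described from lists of names. Of all genes tested, 7.01% were lower and 7.36% higher with an unadjusted p below 0.05, and 10.8% had all mutant arrays below and 14.1% all above the control arrays. The genes named were those with the smallest p of their list, so that groups apart in them are a description. Among steroid enzymes other than the members, 26 of 30 measured genes were tested; 0 passed the test (limma), 7 were lower and 3 higher with an unadjusted p below 0.05, and the median log2 fold change was -0.63. This median rested on mutant 1: it was -0.03 without that array, and 0.11 with the 3′/5′ index as a covariate. Cyp39a1, an oxysterol hydroxylase, had 10.27 ± 0.28 in mutants and 7.81 ± 0.95 in controls (SD, n = 3 each; log2 fold change 2.47, limma adjusted p = 0.121). Hsd17b12, which also elongates fatty acids, had -1.65 (limma adjusted p = 0.231). H2-Ke6, the gene also called Hsd17b8, had 0.92 (limma adjusted p = 0.274). Groups did not overlap for 8 of the 26 tested genes, 5 lower and 3 higher, among them these 3.

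Of steroid receptors and plasma carriers 10 of 11 measured genes were tested, with 0 past the test (limma), 2 lower and 0 higher with an unadjusted p below 0.05, and a median of -0.38 (0.00 with the 3′/5′ index as a covariate). The estrogen receptor Esr1 had 4.88, 7.55 and 6.44 on mutant arrays 1 to 3, against 7.51, 7.88 and 8.20 on control arrays 1 to 3, so that mutant 2 lay within the controls (-1.57, limma adjusted p = 0.342). Serpina6, the plasma carrier of glucocorticoids, had -1.23 (limma adjusted p = 0.355) and the progesterone receptor membrane component Pgrmc2 -0.49 (limma adjusted p = 0.381). Shbg, the sex hormone carrier, was at or below background in both groups, so no fold is given.

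Among genes of thyroid hormone action, 20 of 21 measured genes were tested; 0 passed (limma), 4 were higher and 1 lower with an unadjusted p below 0.05, and the median was 0.23. It was 0.15 without mutant 2, 0.10 without control 2 and -0.22 on the scaling as deposited. The transporter Slc16a10, which carries iodothyronines and aromatic amino acids, had 8.18, 8.18 and 8.20 on mutant arrays 1 to 3, against 7.17, 6.83 and 7.18 on control arrays 1 to 3. Its groups were well apart and its mutants close together (log2 fold change 1.13, SE 0.22, limma adjusted p = 0.15). Slco1a4, another organic anion transporter, had 1.55 (limma adjusted p = 0.285) and Serpina7, the plasma thyroxine-binding globulin, 1.93 (limma adjusted p = 0.308). Slco1a1 had the opposite sign, with a mutant mean below background and a fitted -5.67 (limma adjusted p = 0.214).

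Of 13 tested genes listed as induced by thyroid hormone in liver, 0 passed (limma), 5 were lower and 0 higher with an unadjusted p below 0.05, and the median was -0.14. Its sign turned without control 3, at 0.19, and after log2(signal + 32), at 0.10. Without mutant 1 the median was -0.64. Thrsp, a promoter of lipid synthesis, gave 0, 9.51 and 3.90 on mutant arrays 1 to 3, against 11.89, 11.30 and 11.55 on control arrays 1 to 3. Mutant 1 was at the floor and the order of the mutants was that of Dio1 (fitted log2 fold change -7.11, limma adjusted p = 0.285). Malic enzyme, Me1, had -1.48 (limma adjusted p = 0.285), Hectd3 -0.95 (limma adjusted p = 0.301) and the mitochondrial glycerol phosphate dehydrogenase Gpd2 -0.63 (limma adjusted p = 0.308). Groups did not overlap for 5 of the 13, these 4 and Idh3a, a mitochondrial dehydrogenase subunit that had 0.53 (limma adjusted p = 0.371) and was named after its values were seen.

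Of 16 tested genes listed as induced by glucocorticoids, 0 passed (limma), 6 were higher and 1 lower with an unadjusted p below 0.05, and the median was 0.87, or 0.50 without control 1 and 0.42 on the scaling as deposited. The metallothioneins Mt1 and Mt2, which bind zinc, had 2.99 and 3.39 (limma adjusted p = 0.191 and 0.254). Tyrosine aminotransferase, Tat, had 12.71 ± 0.30 in mutants and 11.83 ± 0.09 in controls (SD, n = 3 each; log2 fold change 0.88, limma adjusted p = 0.249). The clock gene Per1 had 1.20 (limma adjusted p = 0.296). Every mutant array was above every control array for 6 of the 16 genes, these 4 among them, and for none was it below. The 1 lower gene was Serpina6, also listed with the plasma carriers. Its place among genes induced by glucocorticoids is uncertain, and its response to them was not tested here. Tsc22d3, named after its values were seen, also had a negative log2 fold change (-1.22, limma adjusted p = 0.490). The log2 fold change was positive for 14 of the 16 genes.

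Since Dio1 is a selenoprotein, the other selenoproteins were listed too: all 16 measured genes were tested, 0 passed (limma), 2 were higher and 2 lower with an unadjusted p below 0.05, and the median was -0.07, or 0.15 without mutant 1 and -0.15 without mutant 2. The secreted glutathione peroxidase Gpx3 had 7.28, 5.89 and 7.46 on mutant arrays 1 to 3, against 3.58, 4.56 and 4.38 on control arrays 1 to 3 (log2 fold change 2.70, limma adjusted p = 0.112). Selenoh had -1.59 (limma adjusted p = 0.15), the methionine sulfoxide reductase Msrb1 -1.11 (limma adjusted p = 0.256) and Selenos, of the endoplasmic reticulum, 0.76 (limma adjusted p = 0.285). Groups did not overlap for 7 of the 16, 5 higher and 2 lower, these 4 among them, and in these 4 mutant 2 was the mutant nearest to the controls.

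**Figure D5:**
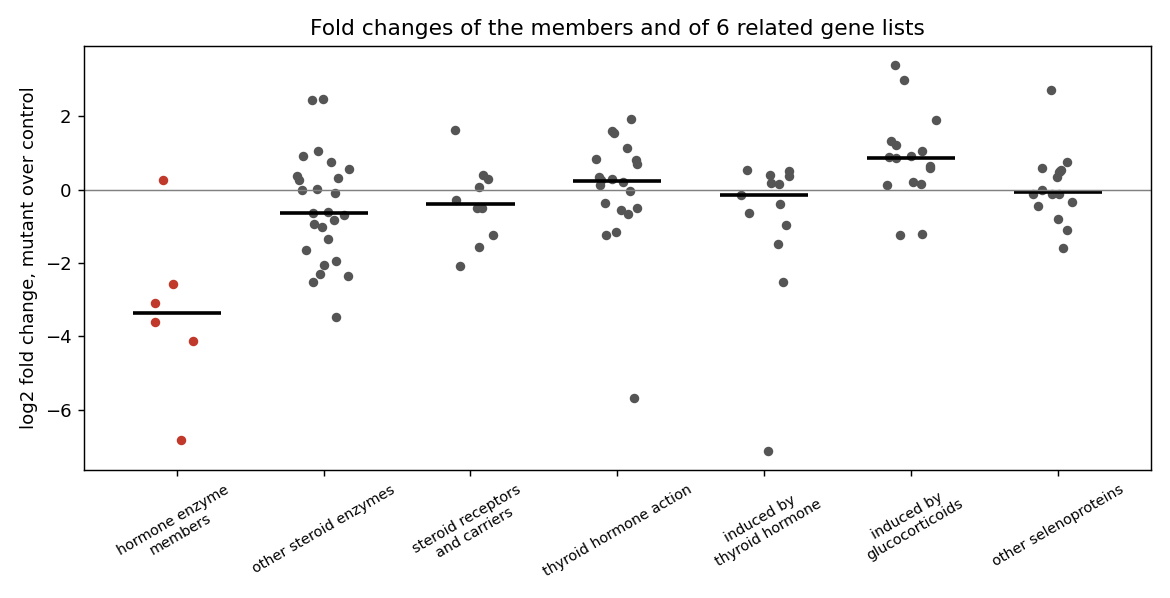
Each point is the log2 fold change of 1 tested gene, mutant over control, for the 6 measured members (red) and for 6 related gene lists (grey), with horizontal bars at the medians. The members have a median of -3.35, and the medians of the lists lie between -0.63 and 0.87.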

How the data were processed

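Total RNA of 3 mutant and 3 control livers was biotin-labelled (one-cycle target labelling, per the labels), and titles gave the groups. The deposited table holds 1 linear intensity per probe set and array, made with GCOS, the Affymetrix scanner software, per the submitters' processing notes; neither its algorithm nor a scaling target is stated there. Gene symbols came from the platform annotation and were updated through Entrez identifiers.

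Each array was scaled to the mean of the arrays' means trimmed by 2% at each end (deposited trimmed means of 37.3 to 58.1 in mutants and 55.2 to 69.9 in controls). Signals under 1 were set to 1, log2 was taken, and the lower 40% of 45037 probe sets was left out. Mutants were compared with controls in limma 3.58.1 (R 4.3.3; lmFit, then eBayes with a variance trend; two-sided tests). A gene was its brightest kept probe set with 1 symbol. Background was read from 80 probe sets of odorant, pheromone and bitter receptors. The number of arrays limits the precision: on simulated data with 27022 probe sets, this comparison called 30% of changes of 2 and 60% of changes of 4 on the log2 scale. It also made 4 false calls there. The simulated noise was independent between probe sets and equally wide in both groups. It thus held no array that stood apart as mutant 1 did, and these rates need not hold for the members.

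The members and lists were chosen with earlier results of these data known. Named genes were the members, Srf, up to 4 of each list with the smallest adjusted p, and the 2 genes nearest to each member; others are marked. Alternatives changed the scaling, filter, floor, variance trend, probe set rule, covariate, replicate block, array weights and each array left out.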

Additional observations from a re-analysis of the deposited data

How the results depend on the processing

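The count of called members was 0 and stayed 0 in 16 of 18 alternatives. It was 3 with array weights, which gave mutants 1, 2 and 3 weights of 0.205, 0.464 and 2.92; these were Hsd17b2, Hsd3b2 and Hsd3b5 (limma adjusted p = 0.00624, 0.0161 and 0.0204). Leaving out 1 array gave 0 to 1 called members, the 1 being Hsd17b2 without mutant 1, where 81 genes were called in all. Over all genes 15 were called. With dim probe sets kept it was 0 (limma; of all, 1250 had an unadjusted p below 0.05 and were higher, 920 lower). It was 37 with the lower 20% left out, 69 after log2(signal + 32), 3 with a floor at 16, 5 without the variance trend, 3 with the 3′/5′ index as a covariate and 1652 with array weights. Leaving out 1 array gave 1 (without control 2) to 308 (without mutant 2). The causes were not tested.

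Of the 6 members, Hsd17b2, Hsd3b2 and Hsd3b5 kept a negative sign in all 18 alternatives. Part of this was fixed in advance. Changes of the filter, the variance trend, the probe set rule and the replicate block left every member's value as it was. For Hsd3b5, leaving out a mutant array could not change the value, since every mutant array was at the floor. For the same reason its sign could hardly turn with the scaling, the floor or a control left out. The sign turned for Dio1 (1.01) and Akr1c6 (0.87) with the 3′/5′ index as a covariate, and for Hsd11b1 (-0.19) on the scaling as deposited. Of 108 list medians over the alternatives 42 moved by more than the spread between arrays, and of 108 list counts 14 moved. The replicate numbers in the titles gave no clear sign of pairing. Same-numbered mutants and controls had correlations of -0.04, 0.02 and 0.04 between their deviations from the group means, and 1 of 3 mutants correlated best with its own number. So few arrays cannot decide whether the samples were paired. With the number as a replicate block 14 genes and 0 members were called (limma; the 6 members had adjusted p between 0.193 and 0.67). The SE fell with that block for every measured member but Hsd11b1, for Dio1 from 1.52 to 1.08.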
